A study of Solanum lycopersicum with 36 samples.

Results

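The miRNAs of tomato leaf were compared between combined stress and drought, which shows the change at 38 °C against 26 °C in plants that had no water. The members are miRNA sequences, each counted once, that reached 10 normalized reads or more in 3 or more of the 12 small RNA libraries. Of the 765 sequences in the deposited table, 419 met this rule. The leaves were the first fully expanded ones of cultivar ‘Jinlingmeiyu’, from plants that were 24 days old at the start. The plants of interest were at combination (38 °C after water had been withheld for 3 days) and were set against plants at drought (26 °C after water had been withheld for 3 days), with 3 biological replicates each. The other 6 libraries were from irrigated plants at heat (38 °C) and at control (26 °C), also with 3 replicates each. Treatments lasted 48 h and the leaves sequenced were those taken at 36 h.

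In plants, a DICER-LIKE enzyme releases each miRNA from a folded precursor as a short duplex of 2 strands. The guide strand is loaded into an argonaute (AGO) protein and directs the cutting of matching transcripts, and the passenger strand is usually degraded. In leaves these guides set the levels of transcription factors for growth, of copper proteins and of resistance genes, and also of DICER-LIKE 1 and AGO proteins themselves. The strand was taken from the arm that is known as the guide in each family. By this rule 72 of the tested sequences were passenger strands, 97 were guide strands, 181 were candidates (PC names, predicted in this study) and 69 had no strand assigned. These are the members that passed the filter on low values, of 99 passengers, 125 guides, 430 candidates and 111 unassigned sequences in the table.

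The sequences that the results turn on are printed as the deposited table spells them (T for U, 5′ to 3′), with the seed, bases 2 to 8, in capitals. Positions are those of the precursor on the SL3.0 assembly, as the study gives them for the same sequence. The guides that changed are shown first, beside the 21-nt forms of miR162 and miR408, which did not pass the test and share a seed with the longer forms that did. The forms of each differ at the 3′ end.
sly-miR162: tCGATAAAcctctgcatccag
sly-miR162a_ptc: tCGATAAAcctctgcatccagt
sly-miR162a_lus: tCGATAAAcctctgcatccagaa
sly-miR403-3p: cTAGATTCacgcacaagctcg
sly-miR171d: tTGAGCCGcgccaatatcact
sly-miR164a-5p: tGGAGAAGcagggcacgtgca
sly-miR408b-3p_stu: tGCACTGCctcttccctggct
sly-miR408-3p_mtr: tGCACTGCctcttccctggctttt

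The passengers below are shown because they carry the fall described next, with 1 exception. Those of miR390 share a seed, as do the 3 from miR156 with miR157 (of which sly-miR156i-p3_nta, shown for comparison, did not fall) and the pair of sly-miR482e-5p forms, while the miR172 passengers each have a seed of their own.
sly-miR172a-5p_stu: gTGGCATAatcaagattcacg
sly-miR172b-5p_ath: gCAGCACCattaagattcaca
sly-miR172d-5p_stu: gGAGCATCatcaagattcaca
sly-miR172b-p5: gTAGCATCatcaagattcata
sly-miR482a-p5: gGGATCGGtgagttggaaagc
sly-miR482d-5p: gGAGTGGGtgggatggaa
sly-miR482e-5p: tGTGGGTGgggtggaaagatt
sly-miR482e-5p_stu: aGTGGGTGgtgtggtaagatt
sly-miR156g-p3_nta: gCTCTCTAtgcttccgtcatcc
sly-miR157d-3p_aly: gCTCTCTAtgcttccgtcatc
sly-miR156i-p3_nta: gCTCTCTAtgcttctgtcatc
sly-miR390a-3p: cGCTATCCatcctgagtttt
sly-miR390b-3p: cGCTATCCatcctgagttt
sly-miR398a-5p_stu: gGGTTGATttgagaacatatg
sly-miR162a-5p_stu: gGAGGCAGcggttcatcgatc
sly-miR159-p5: aGCTGCTGacctatggattcc
sly-miR168a-3p: cCTGCCTTgcatcaactgaat
Of the sequences that were higher at combination, these are shown because sly-miR397-p3 held the most reads, sly-miR1919a moved the other way with water, and both arms of the PC-132 precursor rose.
sly-miR397-p3: tCAACGCTaaactcgatcatg
sly-miR1919a: aCGAGAGTcatctgtgacagg
PC-132-3p: tCCTCGGCtgaattgtcttgct
PC-132-5p: aGACAATCcagccgaggaactt

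The libraries of both treatments were alike in their totals but not in the number of sequences they listed. The deposited values are normalized reads, that is reads multiplied by 1 factor per library, and their sum was 961770 to 1195479 at combination and 991391 to 1100933 at drought. The tested sequences held at least 99.8557% of this sum in every library. Of the 419 tested sequences, the combination libraries listed 322, 413 and 400 above 0, and the drought libraries 382, 386 and 377, so combination replicate 1 had the fewest. The number of reads behind each value was not analysed here, which leaves the counting error of a single value unknown. A value of 0 is therefore given as listed at 0.

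For combination vs drought, 50 of the 419 sequences passed the test (11.9%), of which 19 were higher (4.53%) and 31 were lower (7.4%) at combination. The test was limma on log2(normalized reads + 1) with an adjusted p under 0.05, and such sequences are called changed below. The median log2FC of all tested sequences was −0.15, or −0.16 without the 9 sequences listed at 0 in every library of a treatment. Its sign rested on combination replicate 1, without which the median was 0.06, and it was −0.32 without combination replicate 2. In all 50 the combination and drought libraries did not overlap, as was so for 136 of the 419 tested sequences (32.5%), 59 of them higher (14.1%) and 77 lower (18.4%) at combination. With each of the 6 libraries left out in turn the number ranged from 29 to 56, and 25 of the 50 sequences lost their call at least once. The number was lowest without drought replicate 2 (29), and 28 of the 50 were still called then.

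**Figure D1:**
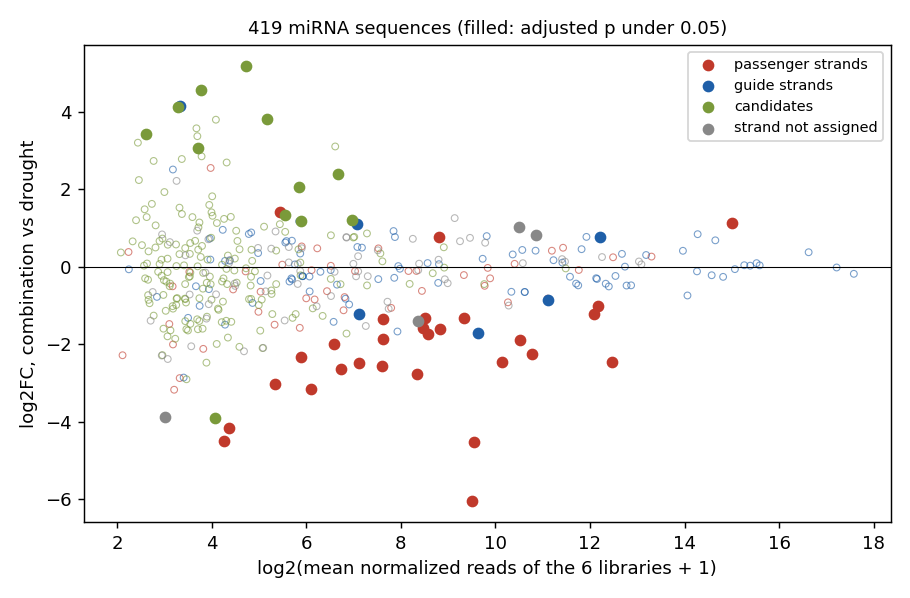
The log2FC for combination vs drought (y axis) of the 419 tested sequences against their level, as log2 of the mean normalized reads of the 6 libraries + 1 (x axis). Filled points passed the test, and 25 of the 31 that fell are passenger strands (red), while 11 of the 19 that rose are candidates (green), mostly at low levels.

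Passenger strands made up most of the sequences that fell, though not a fall of passenger reads as a whole. Their share of all normalized reads was 9.84%, 7.63% and 8.23% at combination and 9.55%, 8.23% and 8.48% at drought, with overlapping groups. The copper protein families held the largest passenger sums, with 76450, 42318 and 44881 normalized reads at combination and 40016, 33722 and 34429 at drought. Most of these reads were of sly-miR397-p3, which rose, so the total does not show the share of the other passengers. Of the 72 passenger strands tested, 25 were lower and 3 were higher at combination than at drought, that is 34.7% lower against 7.4% of all tested sequences, with a median log2FC of −0.96. Of the 97 guide strands, 3 were lower and 3 were higher (median −0.07). Among the 43 passengers with a mean of 100 or more normalized reads over the 12 libraries, 19 were lower and 2 were higher (median −1.0), and among the 29 with less, 6 were lower and 1 was higher (median −0.85). The passengers that fell came from 13 families.

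The passengers of miR172, whose guides cut transcripts of AP2 factors that control flowering and organ identity, were all lower. The passenger sly-miR172a-5p_stu (chromosome 6, 46670344 to 46670449) had 15.2, 35.4 and 14.8 normalized reads in the combination libraries, against 1039.6, 1913 and 1333 in the drought libraries. The groups stood far apart, with a mean 65.6-fold lower at combination (log2FC −6.04, SE 0.88, adjusted p = 0.00052). This was the lowest log2FC of the 419 tested sequences. The passenger sly-miR172b-5p_ath (chromosome 5, 66041786 to 66041908) had 25.3, 38.0 and 22.6 at combination and 225, 135 and 188 at drought (log2FC −2.63, SE 0.35, adjusted p = 0.00034). The passenger sly-miR172d-5p_stu had 7.59, 5.69 and 8.69 at combination and 99.6, 75.1 and 39.8 at drought (log2FC −3.04, SE 0.82, adjusted p = 0.029). Its call was lost without drought replicate 1 or 2 or without any of the combination libraries (adjusted p up to 0.096), and with a pseudocount of 0.5 (adjusted p = 0.057). The last of the 4, sly-miR172b-p5, was also lower (log2FC −1.88). None of the 8 miR172 guides passed the test, and 1 had an unadjusted limma p under 0.05. The most abundant, sly-miR172a, had 6558, 5863 and 8158 at combination and 5912, 7568 and 6993 at drought, with overlapping groups and a 95% interval of the log2FC from −0.48 to 0.48. The guide sly-miR172d-3p_stu, from the precursor of sly-miR172d-5p_stu, had 89.8, 116 and 104 at combination and 649.7, 329 and 169.14 at drought. These groups did not overlap, but the change did not pass the test (log2FC −1.67, adjusted p = 0.099).

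Among miRNAs against resistance genes, 7 of 10 passenger strands were lower and 1 was higher (median log2FC −1.45), while none of the 11 guides passed the test (median −0.30, 4 with an unadjusted limma p under 0.05). Families such as miR482 and miR5300 cut transcripts of NBS-LRR proteins, the receptors that detect pathogen effectors. The passenger sly-miR482a-p5 (chromosome 3, 66250448 to 66250557) had 46.8, 68.3 and 69.5 at combination and 1157, 1682 and 1466 at drought. It was 23.3-fold lower by the means (log2FC −4.53, SE 0.75, adjusted p = 0.0015). Its guide sly-miR482a had 3054, 6033 and 4178 at combination and 4404, 7434 and 5870.1 at drought, with overlapping groups (log2FC −0.44, adjusted p = 0.38). From chromosome 6 (37496568 to 37496713), sly-miR482d-5p was listed at 8.85, 11.4 and 20.0 at combination and at 157.45, 101 and 111 at drought (log2FC −3.15, SE 0.40, adjusted p = 0.00023). Its guide sly-miR482d-3p differed by less, with a log2FC of −0.32 (adjusted p = 0.31). The passenger with the most reads, sly-miR482e-5p (chromosome 4, 56034595 to 56034782), had 2487, 2793 and 2530.5 at combination and 5356, 6363 and 6721 at drought (log2FC −1.23, SE 0.17, adjusted p = 0.00038). Its guide sly-miR482e-3p, at 158604, 226862 and 165462 at combination and 172959, 246826 and 204460.0 at drought, did not pass the test (95% interval of the log2FC from −0.63 to 0.26). The other passengers that were lower, named here after their values were seen except the last, were sly-miR482e-5p_stu (log2FC −2.01), sly-miR5300-p3 (−1.58), sly-miR6024-5p_stu (−1.31, named as it also passed the interaction test) and sly-miR482d-5p_stu (−1.61). The call of sly-miR482d-5p_stu was lost without drought replicate 2 (adjusted p = 0.064).

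The family miR398 lowers Cu/Zn superoxide dismutase, so that copper is kept for other proteins when it is scarce. Its passenger sly-miR398a-5p_stu (chromosome 11, 50593777 to 50593867) had 1999.6, 1760.1 and 1453 normalized reads at combination and 8929, 9521 and 10081 at drought. It was 5.47-fold lower with narrow groups (log2FC −2.46, SE 0.26, adjusted p = 7.5e-05). The guide from the same precursor, sly-miR398a-3p_stu, spread widely within each treatment, with 203117, 132881 and 115206 at combination and 98031, 182577 and 181329 at drought, and the groups overlapped (log2FC −0.02, SE 0.42). In contrast, the passenger of miR397, a family against laccases, was higher. The strand sly-miR397-p3 (chromosome 7, 66189777 to 66189892) had 64004, 33243 and 39008 at combination and 24614, 18508 and 17764 at drought (log2FC 1.12, SE 0.31, adjusted p = 0.036). The guide sly-miR397 had 37337, 18335 and 21871 at combination and 16219, 12875 and 12504 at drought, and just missed the threshold (log2FC 0.84, adjusted p = 0.083). Both arms of this precursor were thus higher in every combination library than in any drought library, and replicate 1 was the highest of the combination libraries for both. The call of sly-miR397-p3 was lost without drought replicate 2 or 3, without combination replicate 1 or 3 and without heat replicate 2 (adjusted p up to 0.13), and also with the replicate block and with no trend (adjusted p up to 0.090).

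The families that act on the small RNA pathway itself had 3 of 6 passengers lower (50%, against 34.7% of all tested passengers). The passenger sly-miR162a-5p_stu, of the family that cuts DICER-LIKE 1 transcripts, had 419.9, 340.4 and 278 at combination and 1896, 1853 and 1943 at drought (log2FC −2.47, SE 0.22, adjusted p = 1.8e-05). The passenger sly-miR168a-3p (chromosome 8, 558776 to 558934), of the family that cuts AGO1 transcripts, had 661, 779 and 475 at combination and 2218, 2605 and 2136 at drought (log2FC −1.88, SE 0.22, adjusted p = 0.00012). Its copy from chromosome 12, sly-miR168b-3p, had 4041, 3266 and 2056 at combination and 5941, 6548 and 5661 at drought (log2FC −1.01, SE 0.23, adjusted p = 0.012), and was lost without drought replicate 2 (adjusted p = 0.056). The 3 passengers were each lower in every combination library than in any drought library.

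Passengers of families against growth regulators also fell. The passenger sly-miR159-p5 (chromosome 3, 69217275 to 69217452), of the family that cuts GAMYB transcripts, had 689, 682 and 472 at combination and 2753, 2918 and 3004 at drought (log2FC −2.25, SE 0.20, adjusted p = 1.8e-05). A further miR159 passenger, sly-miR159a-5p_gma, had 58.2, 58.8 and 48.7 at combination and 291, 343 and 360.4 at drought (log2FC −2.56, SE 0.37, adjusted p = 0.00052). Of the passengers of miR156 with miR157, families against the SPL factors that drive the change from juvenile to adult leaves, 3 of 7 were lower. This is 42.9%, against 34.7% of all tested passengers. The strand sly-miR156g-p3_nta (chromosome 3, 69151228 to 69151398) had 73.4, 106 and 65.2 at combination and 462, 722 and 512 at drought (log2FC −2.78, SE 0.32, adjusted p = 0.00012). Of the 3 tested passengers with its seed, 2 were lower, the second being sly-miR157d-3p_aly, named after its values were seen (log2FC −1.33, adjusted p = 0.0015). These 2 differ by a base at the 3′ end, so reads could have been assigned to either. The other passenger with this seed, sly-miR156i-p3_nta, also named after its values were seen, differs from sly-miR157d-3p_aly by an internal base. It was far more abundant, with 14173, 9589 and 9532 at combination and 9121, 8859 and 9319 at drought, and did not pass the test (log2FC 0.26, adjusted p = 0.48). The third, sly-miR156e-3p, also named after its values were seen, had a log2FC of −1.35 (adjusted p = 0.04) and lost its call without any drought library, without combination replicate 1 or 2, without control replicate 3 and without heat replicate 2 (adjusted p up to 0.13). It was also lost with the 6 libraries alone, the replicate block, no trend or equal totals (adjusted p up to 0.074). The most abundant miR156 guide, sly-miR156a, had 42308, 25724 and 27806 at combination and 21342, 17508 and 19648 at drought. It was higher in every combination library but did not pass the test (log2FC 0.68, SE 0.22, adjusted p = 0.061).

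Auxin signalling is the target of miR160, miR167, miR390 and miR393. Of their passengers 3 of 9 were lower, against none of 12 guides (2 with an unadjusted limma p under 0.05). The passenger share of 33.3% was near the 34.7% of all tested passengers. The passenger sly-miR167c-3p_stu (chromosome 9, 64211055 to 64211137) was listed at 0, 3.16 and 0 at combination and at 36.04, 31.1 and 39.8 at drought (log2FC −4.50, SE 0.90, adjusted p = 0.0054). Guides of miR390 start the making of small RNAs against auxin response factors. Their passenger sly-miR390b-3p (chromosome 9, 8388439 to 8388547) had 25.9, 20.9 and 11.3 at combination and 118, 99.7 and 76.3 at drought (log2FC −2.33, SE 0.53, adjusted p = 0.012), with the call lost without combination replicate 3 (adjusted p = 0.058). The passenger sly-miR390a-3p, named after its values were seen, had 170.1, 199 and 153 at combination and 538, 632 and 589 at drought (log2FC −1.75, SE 0.31, adjusted p = 0.0023). The last 2 share a seed and differ by a base at the 3′ end, so reads could have been assigned to either.

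All 7 sequences of miR164, the family that cuts NAC transcripts and so shapes leaf margins and ageing, had a log2FC below 0, and 3 passed the test. Among the rest, sly-miR164d-p3_cpa (log2FC −3.18) was counted as a passenger by its name. It comes from the opposite genome strand of an overlapping locus and is complementary to the guide sly-miR164a-5p over most of its length. It may thus not be a passenger arm. The passenger sly-miR164b-3p (chromosome 1, 89848684 to 89848779) was listed at 0, 7.59 and 0 at combination and at 44.6, 23.3 and 43.1 at drought (log2FC −4.16, SE 1.13, adjusted p = 0.031). Its call was lost without any of the drought libraries and without combination replicate 1 or 3 (adjusted p up to 0.11). The passenger sly-miR164a-3p, named after its values were seen, had 35.4, 48.1 and 37.4 at combination and 227, 172.18 and 313 at drought (log2FC −2.50, adjusted p = 0.00023). Here the guide moved too. The guide sly-miR164a-5p had 1236, 1749.6 and 1785 normalized reads at combination and 2739, 2739 and 3103 at drought, and the groups did not overlap (log2FC −0.86, SE 0.21, adjusted p = 0.016). The call of this guide was lost without drought replicate 2 or 3 or combination replicate 1, and in a fit with no mean-variance trend (adjusted p up to 0.072 and 0.060).

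**Figure D2:**
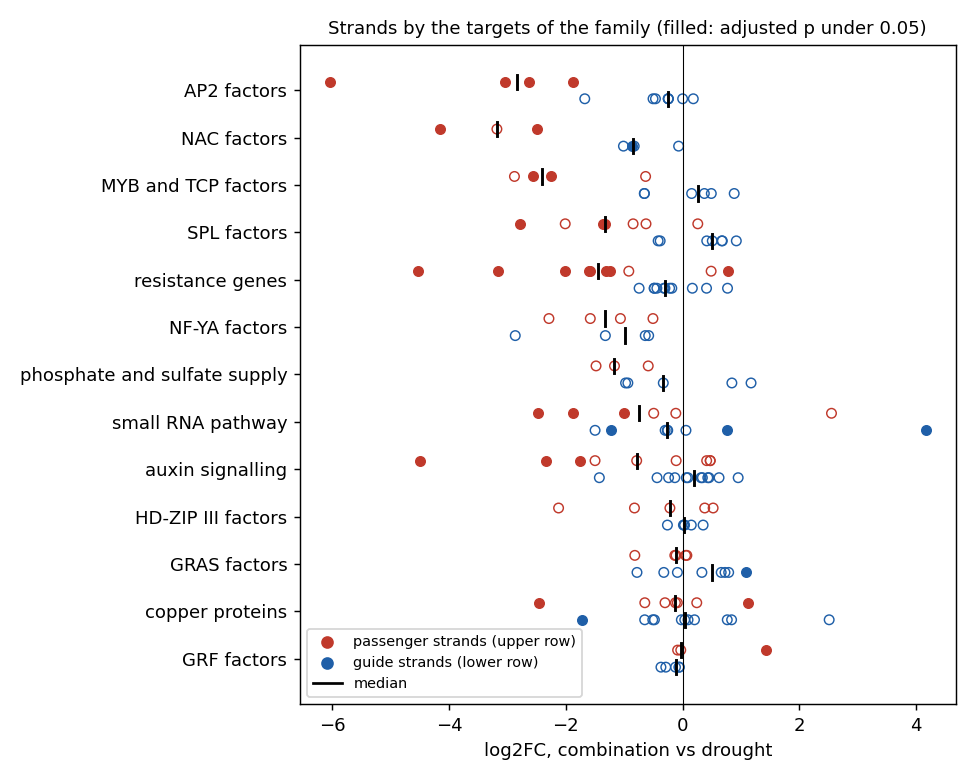
The log2FC for combination vs drought (x axis) of each tested passenger strand (red, upper row) and guide strand (blue, lower row), by the targets of its family. Filled points passed the test and black ticks are medians. The AP2 passengers (median −2.84) and NAC passengers (median −3.18) lie far left of their guides (medians −0.24 and −0.85), and the passengers of HD-ZIP III, GRAS, copper and GRF families have medians between −0.22 and −0.03. The NAC median is the value of sly-miR164d-p3_cpa, a passenger by its name alone, which is antisense to the guide sly-miR164a-5p. The guide at the far right, sly-miR162a_lus, was listed at 0 in every drought library, so its fitted value depends on the pseudocount.

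Several classes had no passenger past the test. Of the 5 passengers of miR166, against HD-ZIP III factors of leaf polarity, none passed the test, as was so for the 5 of miR171 against GRAS factors, the 4 of miR169 against NF-YA subunits and the 3 of miR399 and miR827, which act on phosphate supply. Their counts at an unadjusted limma p under 0.05 were 2, 0, 1 and 0 in that order. A missed call is not a level that stayed the same, since all 4 NF-YA passengers (median log2FC −1.32) and all 3 of miR399 and miR827 (median −1.17) were below 0. The medians of the GRAS, copper and GRF passengers were nearer to 0, at −0.11, −0.12 and −0.03. Against its guide, sly-miR171d-5p_stu (−1.15), named after its values were seen, had a lower log2 ratio at combination. The ratio of sly-miR166a-5p_stu (−2.05), also named after its values were seen, was lower too, but its guide did not pass the filter. This passenger held at least 88.1% of the duplex reads at combination and drought wherever a strand was listed. Combination replicate 1 listed neither strand, so the ratio mostly follows the passenger itself. All 8 miR169 sequences had a log2FC below 0 (median −1.19), and the most abundant guide of that list, sly-miR169c, had 50.6, 48.7 and 55.6 at combination and 78.7, 90.6 and 74.1 at drought (adjusted p = 0.13). The passenger sly-miR396a-p3_ath (on a scaffold with no chromosome), of a family against growth-regulating factors (GRF), was higher. It had 58.2, 50.6 and 76.1 at combination and 25.6, 12.9 and 32.1 at drought (log2FC 1.42, SE 0.38, adjusted p = 0.028). Its call was lost without drought replicate 2 and without combination replicate 1 or 3 (adjusted p up to 0.11), and also with the 6 libraries alone and with no filter (adjusted p up to 0.075). The third passenger that was higher, sly-miR6026-5p_stu, named after its values were seen, had 593, 576 and 515 at combination and 287, 346 and 353 at drought (log2FC 0.77, SE 0.22, adjusted p = 0.04). Leaving out any of these 6 libraries, control replicate 1 or heat replicate 1 ended this call (adjusted p up to 0.13), as did the replicate block, no filter and no trend (adjusted p up to 0.088).

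The first base of a small RNA bears on which AGO protein takes it up, with AGO1 taking mostly U. Of the 31 sequences that fell, 13 started with G, 8 with C, 5 with A and 5 with U, and of the 19 that rose, 9 started with U, 8 with A, 2 with C and none with G. Of the 46 tested sequences that start with G, 28.3% were lower, against 7.4% of all tested sequences, and most sequences that fell were passengers, so first base and strand cannot be told apart here. By length, 20 of the 31 that fell and 10 of the 19 that rose had 21 nt, as did 185 of the 419 tested sequences. Of the 119 tested sequences with 24 nt, 1 was higher and 3 were lower.

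To set each passenger against its own guide, the log2 ratio of passenger to guide was compared in 68 duplexes of 30 families. These are precursors for which both strands are in the table and named, with at least 1 strand past the filter. Some listed precursors overlap on the genome and were counted separately, so the duplexes are not all distinct loci. An example is sly-miR390a-3p (chromosome 10, 59448031 to 59448193) and sly-miR390b-3p_ath (59447997 to 59448115). Of these duplexes, 28 had a lower ratio and 3 a higher ratio at combination than at drought (45.6% called, of which 41.2% lower and 4.41% higher), with a median change of −0.67. Both strands passed the filter in 53, of which 26 had a lower and 3 a higher ratio (median −0.94). The strand of a duplex that the table lists for a precursor may be a minor form, which limits what a single ratio says. Of the 28 guides in the duplexes with a lower ratio, 2 passed the test by themselves, and of the 28 passengers 19 did. The passenger sly-miR159-p5 made up 0.512%, 0.690% and 0.429% of the duplex reads with sly-miR159 at combination, and 2.55%, 3.80% and 3.40% at drought (change in log2 ratio −2.63, SE 0.22, adjusted p = 4.4e-07). For sly-miR482a-p5 with sly-miR482a these shares were 1.51%, 1.12% and 1.64% at combination and 20.8%, 18.4% and 20.0% at drought (change −4.09, SE 0.64, adjusted p = 0.00015). The strand share was thus lower in every combination library in both duplexes.

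**Figure D3:**
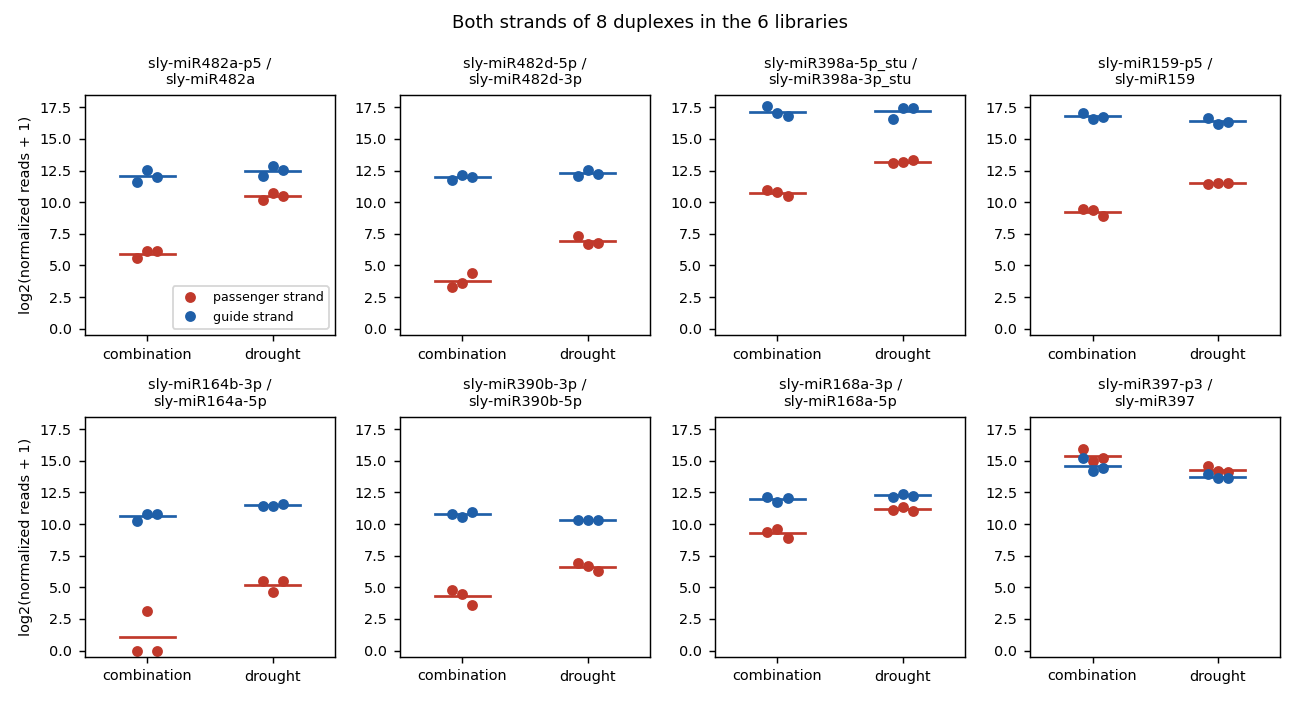
Levels of the passenger (red) and guide (blue) of 8 duplexes, as log2(normalized reads + 1) on the y axis, for the 3 combination libraries (left) and the 3 drought libraries (right), with lines at the means. In 7 panels the red points lie lower at combination, and the blue points differ by less. Of the guides shown, sly-miR164a-5p passed the test and also lies lower at combination, and sly-miR168a-5p lies lower without overlap. In the last panel (miR397) both strands lie higher at combination.

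The other duplexes among the 10 with the largest called change gave the following values. The change in log2 ratio was −2.84 for sly-miR482d-5p with sly-miR482d-3p, −2.44 for sly-miR398a-5p_stu with sly-miR398a-3p_stu, and −2.77 for sly-miR390b-3p with sly-miR390b-5p. It was −2.53 for sly-miR162a-5p_stu with the 24-nt form sly-miR162a-p3_stu and −2.39 for sly-miR172b-5p_ath with a 22-nt form of miR172, both minor forms of their guides. Also lower were sly-miR156g-p3_nta with sly-miR156e_mtr (−3.72, a guide that did not pass the filter), sly-miR164b-3p with sly-miR164a-5p (−3.29) and sly-miR827-5p_stu with sly-miR827-3p_stu (−2.65). These last 3 calls did not hold. The first was lost without drought replicate 1 or 2 or combination replicate 2 or 3 (adjusted p up to 0.12), and the second without drought replicate 1 or 3 or combination replicate 1 or 3 (adjusted p up to 0.089). The third was lost without any drought library, combination replicate 1 or 2 or control replicate 2 (adjusted p up to 0.22). A pseudocount of 0.5 or no trend also ended the first (adjusted p up to 0.060), and these, the replicate block or no filter ended the third (adjusted p up to 0.091). The 3 ratios that were higher belonged to sly-miR396a-p3_ath (1.71), sly-miR6027-5p (0.98) and sly-miR6026-5p_stu (0.61). The passenger sly-miR6027-5p held 36.2%, 38.3% and 32.0% of its duplex at combination and 19.0%, 23.5% and 23.2% at drought, named after its values were seen.

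Apart from sly-miR164a-5p, 5 guide strands passed the test, and sly-miR403-3p was the most abundant of them. The guide sly-miR403-3p (chromosome 1, 78229495 to 78229636) directs the cutting of AGO2 transcripts. It had 6391, 5813 and 5571 at combination and 3947, 3304 and 3263 at drought, with no overlap (log2FC 0.76, SE 0.19, adjusted p = 0.02). The guide sly-miR171d (chromosome 12, 2882828 to 2882939), against GRAS factors such as SCL6, had 149, 208 and 187 at combination and 117, 86.7 and 58.0 at drought (log2FC 1.09, SE 0.31, adjusted p = 0.038). Its more abundant relative sly-miR171b-p3_mes had 6615, 7139.8 and 8162 at combination and 5926, 5993 and 5451 at drought, again without overlap, and did not pass the test (log2FC 0.33, adjusted p = 0.32). The call of sly-miR403-3p was lost without drought replicate 2 or 3, without combination replicate 1 and with no mean-variance trend (adjusted p up to 0.085). The call of sly-miR171d was lost without drought replicate 2 or 3, combination replicate 2 or 3 or heat replicate 1 or 2 (adjusted p up to 0.17). It was also lost with the 6 libraries alone, the replicate block, no filter, no trend or equal totals (adjusted p up to 0.076).

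The other called guides were longer forms of abundant miRNAs, and these forms did not move together. The 21-nt form sly-miR162 had 26228, 29537 and 23094 at combination and 30705, 32257 and 31186 at drought (log2FC −0.26, adjusted p = 0.35). The 22-nt form sly-miR162a_ptc (chromosome 3, 65922672 to 65922781) had 61.3, 102 and 87.4 at combination and 169.31, 239.5 and 173 at drought, and was lower (log2FC −1.22, SE 0.30, adjusted p = 0.018). The 23-nt form sly-miR162a_lus had 11.4, 28.5 and 14.8 at combination and was listed at 0 in all 3 drought libraries (adjusted p = 0.0066). The same seed thus appeared in a form that fell, a form that rose and a main form that did not pass, all with the 5′ end in common. For miR408, a family against plantacyanin and laccases, the 24-nt form sly-miR408-3p_mtr had 447, 417 and 241 at combination and 933, 1669.5 and 1021 at drought (log2FC −1.71, SE 0.37, adjusted p = 0.0089). The 21-nt form sly-miR408b-3p_stu, with 69426, 31335 and 24585 at combination and 41304, 34816 and 34387 at drought, overlapped between the groups (log2FC 0.04, SE 0.46). The calls of sly-miR162a_ptc (adjusted p up to 0.089) and sly-miR408-3p_mtr (adjusted p = 0.052) were lost without drought replicate 2, and that of sly-miR162a_ptc also without combination replicate 1.

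**Figure D4:**
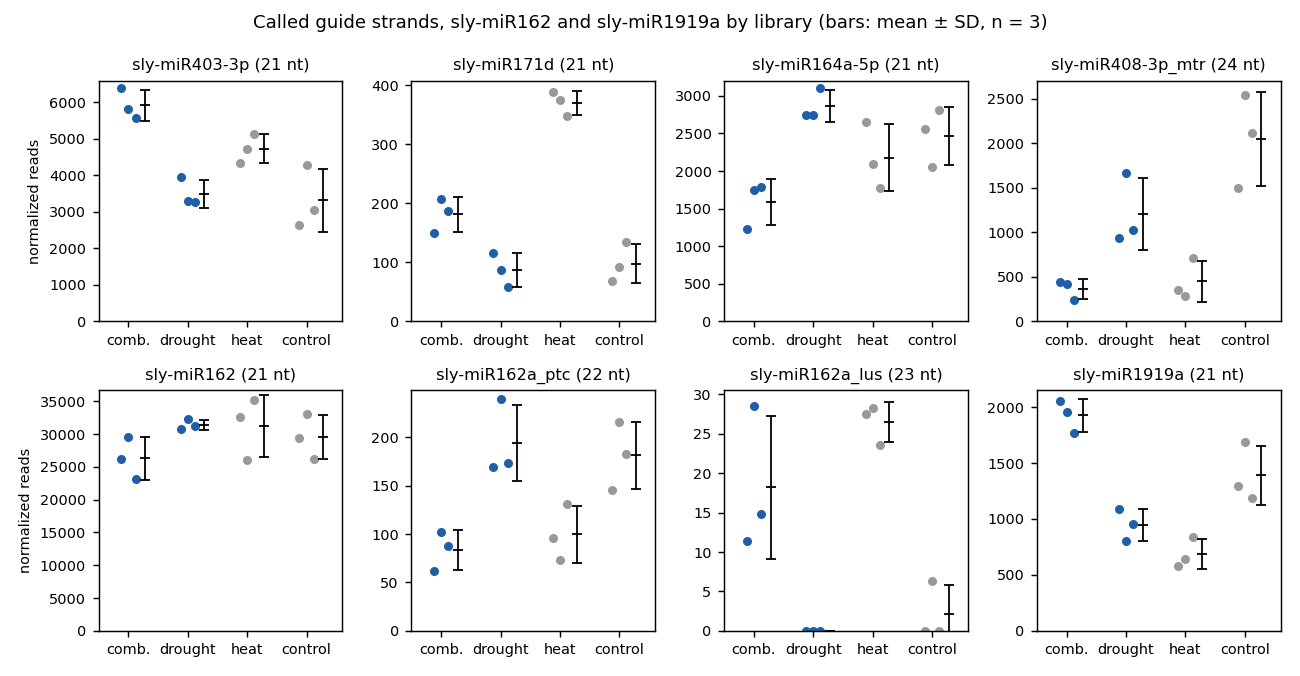
Normalized reads (y axis) of 6 called guide strands, of the main form sly-miR162 and of sly-miR1919a in every library, at combination and drought (blue) and at heat and control (grey), with mean ± SD of 3 libraries as bars. The 23-nt form sly-miR162a_lus is listed at 0 in the 3 drought libraries and at 11.4 to 28.5 at combination, and sly-miR1919a at combination lies above every other treatment.

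The most abundant guides of the other target classes did not pass the test. The guide sly-miR159 had 133963, 98124 and 109453 at combination and 105229, 73772 and 85264 at drought (95% interval of the log2FC from −0.03 to 0.77). The intervals were −0.28 to 0.46 for sly-miR167a (auxin response factors), −0.52 to 0.58 for sly-miR166c-3p (HD-ZIP III factors), −0.61 to 0.49 for sly-miR396a-5p (GRF factors) and −0.28 to 0.88 for sly-miR394-5p (an F-box protein). These bounds still allow changes of up to 0.88 log2 units. The guide sly-miR399, which acts on phosphate supply, had 58.2, 74.0 and 113 at combination and 182, 149 and 139 at drought and was just outside the threshold (log2FC −0.98, adjusted p = 0.056).

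Of the miRNAs that the study also measured by qRT-PCR, only sly-miR171d passed here. The paper describes its qRT-PCR changes against control and names a rise of sly-miR171d after heat, so its results are not for combination vs drought. The guide sly-miR167h_mdm had 27.2, 80.3 and 62.2 at combination and 18.0, 48.5 and 40.9 at drought (adjusted p = 0.46), and PC-56-5p had 2444, 3239 and 2816 at combination and 2663, 3069.5 and 2994 at drought (adjusted p = 0.9). The name sly-miR398b-3p_stu stands for a pair of sequences. The exact form had 4081, 93.6 and 80.0 at combination and 379, 212 and 252 at drought, so that combination replicate 1 alone was high (log2FC 0.20, SE 1.22). The form with a changed base had 7830.2, 5883 and 5189 at combination and 9053, 8915 and 8061 at drought (log2FC −0.48, adjusted p = 0.17).

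Of 181 tested candidates, 11 were higher (6.08%, against 4.53% of all tested sequences) and 1 was lower. As a group they had no common direction, since 87 had a log2FC above 0 and 94 below 0, with a median log2FC of −0.06, or −0.13 without the 6 that were listed at 0 in every library of a treatment. Of the 77 with 20 to 22 nt, 9 were higher and none was lower (median 0.50, 1 lower at an unadjusted limma p under 0.05), and of the 103 with 23 to 25 nt, 2 were higher and 1 was lower (median −0.48). Both arms of the PC-132 precursor (chromosome 6, 23724811 to 23725064) rose. The 3′ arm PC-132-3p had 86.0, 102 and 88.2 at combination and 20.9, 20.7 and 22.7 at drought (log2FC 2.05, SE 0.32, adjusted p = 0.00077). The 5′ arm PC-132-5p had 86.0, 241 and 190.4 at combination and 42.7, 23.3 and 25.4 at drought (log2FC 2.39, SE 0.41, adjusted p = 0.0018). Replicates agreed closely for the 3′ arm, and no combination library overlapped a drought library for either arm.

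Several candidates were listed in every combination library and at 0 in every drought library. PC-85-3p (chromosome 1, 4430799 to 4430953) had 30.4, 10.8 and 34.8 at combination (adjusted p = 0.0015), and PC-186-5p had 16.4, 22.8 and 113 (adjusted p = 0.02). PC-50-3p (adjusted p = 0.04) and PC-42-3p (adjusted p = 0.012), named after their values were seen, were also at 0 at drought and reached 25.3 and 14.8 at combination. No fold is given against a treatment listed at 0. PC-186-5p was lost without drought replicate 2 or 3 or combination replicate 3 (adjusted p up to 0.12), and PC-42-3p without combination replicate 3 (adjusted p = 0.071). PC-50-3p was lost without any of the 6 libraries, control replicate 1 or 3 or heat replicate 1 (adjusted p up to 0.14). PC-42-3p was also lost with the 6 libraries alone (adjusted p = 0.075) and PC-50-3p with the replicate block (adjusted p = 0.065).

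The other candidates that rose were PC-293-5p, with 35.4, 86.0 and 73.0 at combination and 0, 6.47 and 9.95 at drought (log2FC 3.83, adjusted p = 0.012), PC-20-5p (log2FC 1.34), PC-140-3p (1.20) and PC-351-3p (1.17), and PC-78-5p, named after its values were seen (3.08). All 5 lost their calls without combination replicate 3, with an adjusted p of up to 0.054, 0.12, 0.075, 0.069 and 0.17 in that order. All but PC-293-5p also lost them without drought replicate 2, PC-20-5p also without drought replicates 1 and 3 and combination replicate 2, and PC-78-5p without any library but drought replicate 1. PC-20-5p was also lost with no filter (adjusted p = 0.083), and PC-78-5p with the 6 libraries alone, the replicate block, no filter or no trend (adjusted p up to 0.15). The only candidate that fell, PC-181-3p (chromosome 6, 42971019 to 42971266), had 0, 6.64 and 0 at combination and 25.6, 38.8 and 23.2 at drought (log2FC −3.90, SE 0.83, adjusted p = 0.0082).

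Of the 69 sequences with no strand assigned, 2 rose and 2 fell. The Solanaceae miRNA sly-miR1919a (chromosome 8, 56676109 to 56676231) had 2058, 1952 and 1768 at combination and 1089.8, 804 and 954 at drought (log2FC 1.03, SE 0.21, adjusted p = 0.0054). The others were named after their values were seen. sly-miR9470-3p had 2302, 2663 and 2178 at combination and 1293, 1282 and 1448 at drought (adjusted p = 0.046). sly-miR9474-p3 was lower (log2FC −1.40, adjusted p = 0.01), and sly-miR477-3p was listed at 0 at combination and at 10.4, 14.2 and 17.7 at drought (adjusted p = 0.038). Without any of the 6 libraries sly-miR9470-3p and sly-miR477-3p lost their calls (adjusted p up to 0.14 and 0.17), sly-miR9470-3p also without control replicate 1 and heat replicates 1 and 2, and sly-miR477-3p also without control replicates 1 and 3. The replicate block ended both calls, and no filter or no trend that of sly-miR9470-3p (adjusted p up to 0.11 for sly-miR9470-3p and 0.079 for sly-miR477-3p). sly-miR9474-p3 was lost without drought replicate 2 (adjusted p = 0.054).

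The change at 38 °C without water was then set against the change at 38 °C with water, from heat vs control, which shares no library with combination vs drought. Heat vs control called 63 sequences (15.0%), 10 higher (2.39%) and 53 lower (12.6%), and 22 of these were among the 31 that fell for combination vs drought. For the 72 passengers the median log2FC was −0.96 without water and −1.99 with water, where 42 were lower. Across the 419 sequences the changes correlated at r = 0.39 (rho = 0.21), a description only, since sequences are not independent and share their libraries. The difference itself was tested as the interaction, (combination vs drought) minus (heat vs control), and 21 sequences passed (5.01%), all of them positive by limma, and 0 were negative. At an unadjusted p under 0.05, 61 were positive and 25 were negative. Of these 21, 18 were passengers, which is 18 of 72 passengers.

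**Figure D5:**
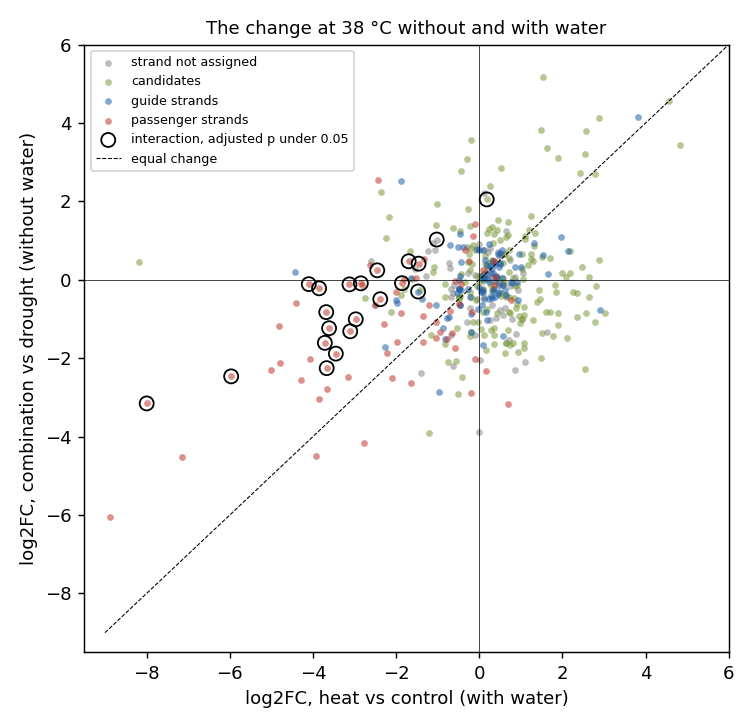
The log2FC for combination vs drought (y axis) against that for heat vs control (x axis) of the 419 tested sequences. Circles mark the 21 sequences that passed the interaction test, all of them above the dashed line of equal change, and most are passengers (red) that fell more with water than without.

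A positive interaction means, by its definition, that the log2FC of each of these 18 passengers was lower with water than without. The passenger sly-miR398a-5p_stu had 127, 231 and 126 at heat and 8027, 13254 and 8699.5 at control (log2FC −5.97), against −2.46 without water. The difference was 3.50 (SE 0.37, adjusted p = 0.00011). For sly-miR160a-3p_stu, of a family against auxin response factors, the combination libraries had 320.0, 295 and 311 and the drought libraries 312, 326 and 363, with overlapping groups. It had 21.5, 51.8 and 7.44 at heat and 308, 461 and 352 at control, and the difference was 3.99 (SE 0.69, adjusted p = 0.0035). The sole guide that passed was sly-miR168a-5p (against AGO1), with 4460.2, 3487 and 4154 at combination, 4616, 5386 and 4829.9 at drought, 2416, 2767 and 2803 at heat, and 9174, 6533 and 6653 at control. Its difference was 1.17 (SE 0.25, adjusted p = 0.013), and it was lost with no mean-variance trend (adjusted p = 0.083).

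The changes of sly-miR1919a had opposite signs. It was higher at combination than at drought (log2FC 1.03) and lower at heat, with 579, 638 and 835, than at control, with 1299, 1684 and 1184 (log2FC −1.02, adjusted p = 0.0029), and the difference of 2.05 passed the test (SE 0.29, adjusted p = 0.001). The drought libraries lay below all control libraries. For PC-132-3p the heat libraries had 43.4, 36.5 and 42.8 and the control libraries 40.3, 46.0 and 24.8, which overlapped, and the difference was 1.87 (adjusted p = 0.027). This call was lost in 9 of the 12 fits without 1 library (adjusted p up to 0.066) and with the replicate block or no filter (adjusted p up to 0.071).

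In the duplexes, heat vs control called 42 of 68 ratios of passenger to guide (61.8%), 41 lower (60.3%) and 1 higher (1.47%). The interaction passed in 24 (35.3%), positive in 22 (32.4%) and negative in 2 (2.94%). Both negative duplexes were of miR390, and they are named after their values were seen. The passenger sly-miR390a-3p made up 3.33%, 4.80% and 3.96% of the reads with sly-miR390a-5p at combination and 15.6%, 17.1% and 15.7% at drought. The change in log2 ratio was −2.20 (SE 0.28, adjusted p = 2.9e-05) without water and −0.13 (adjusted p = 0.70) with water, a difference of −2.07 (SE 0.39, adjusted p = 0.00095). For sly-miR390b-3p with sly-miR390b-5p the changes were −2.77 without water and −0.32 with water, a difference of −2.44 (SE 0.67, adjusted p = 0.0094). The guide sly-miR390a-5p had 4940.2, 3949 and 3710.1 at combination and 2919, 3059 and 3163 at drought, higher in each combination library, and did not pass the test by itself (adjusted p = 0.17).

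Degradome libraries, which count the 5′ ends of cut transcripts, give a value at the sites of some called guides. They are described without a test, because the values were listed separately for each treatment and their totals differed. The listed values summed to 72560, 82843 and 76916 normalized reads in the combination libraries and to 271230, 274604 and 279029 in the drought libraries, and over 180 pairs of a transcript and its values listed at both treatments the median log2 ratio of the means was −1.48, with 137 lower and 43 higher. The AGO2 site of sly-miR403-3p had 7277, 6230 and 10221 at combination and 14713, 11950 and 23780 at drought. The DCL1 site shared by the forms of miR162 had 447, 972 and 219 at combination and 1326, 2011 and 2456 at drought. These groups did not overlap, and both sites were lower at combination, as were most listed sites. For sly-miR171d, whose sites other miR171 sequences also match, the site in an SCL6 transcript (Solyc01g090950.3.1) had 285, 432 and 163.97 at combination and 5304, 2959 and 4950 at drought. A further SCL6 site (Solyc08g078800.1.1) had 203, 396.11 and 219 at combination and 1540, 13012 and 2828 at drought. The site in NSP2 (Solyc11g013150.1.1), another GRAS factor, had 1545, 3349 and 1530 at combination and 9880, 1897 and 782 at drought, so that its groups overlapped while those of the SCL6 sites did not. A further miR171d site, in FHY, was listed at combination alone, with 0, 36.01 and 109. The sites of sly-miR164a-5p did not share a direction. The NAC100 site had 366, 324 and 0 at combination and 42.8, 0 and 112 at drought, and the UXS4 site had 0, 0 and 54.7 at combination and 42.8, 37.9 and 74.4 at drought, and both overlapped between the groups. The NAC021 site was listed at drought alone, with 42.8, 417 and 186, and a site in Solyc04g025715.1.1 at combination alone, with 0, 72.0 and 0.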

How the data were processed

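Small RNA of 12 tomato leaf libraries (3 each at combination, drought, heat and control, grouped by the labels) was analysed. The authors deposited a signal, reads multiplied by 1 factor per library, whose formula is not given in the sources used here. They dropped reads that hit Rfam, repeats or sequences of the Solanaceae Genome Network, and aligned the rest to miRBase 21.0. The degradome values are also a signal that the authors scaled by library. The submitters' processing notes name Bowtie2, FastQC, TopHat, TopHat2 and cutadapt. The deposited table of circular RNA was not used.

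Each sequence was counted once and kept where it reached 10 normalized reads in 3 or more libraries. In R 4.3.3, limma 3.58.1 was applied to log2(normalized reads + 1) of the 12 libraries with a mean for each treatment, a trend of variance with level, and two-sided Benjamini-Hochberg adjusted p over 419 sequences (threshold 0.05). Log2FC is on this scale and understates the change of low sequences. The duplex ratio was fitted likewise over 68 duplexes. The fit was tested on simulated data. Tables were handled in Python 3.11.15 with pandas 2.3.3, and figures drawn with matplotlib 3.10.9.

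Depth per library is given as the sum of normalized reads, and since the number of reads behind a value was not analysed, no counting interval is given. The p-values measure the spread between replicates. A planned test on counts was not run, since the deposited values are not counts.

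Named are the 10 lowest and 10 highest log2FC among called sequences without overlap and with a mean of at least 20 normalized reads in the higher group, every called guide, the qRT-PCR miRNAs, the most abundant guide per target class, sequences called in the interaction, the 10 largest called duplex changes and the guides of the passengers so named. Members and lists were chosen with earlier results of these data known. Alternatives were other scalings, pseudocounts, filters, no trend, the 6 libraries alone, a replicate block, an ordinary linear model and each library left out.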

Additional observations from a re-analysis of the deposited data

Results flagged for a closer look

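For 21 sequences and 9 duplexes named in the text, the change at 38 °C without water differed from that with water by limma's interaction test at an adjusted p under 0.05. The values below are (combination vs drought) minus (heat vs control) on the log2 scale, and a positive value means a smaller fall, or a larger rise, without water. Of the passengers against resistance genes, sly-miR482d-5p differed by 4.84, sly-miR482e-5p by 2.38, sly-miR482d-5p_stu by 2.11 and sly-miR6024-5p_stu by 1.79. Of those of the small RNA pathway, sly-miR168a-3p_ath (22 nt) differed by 3.01, sly-miR168b-3p by 1.96, sly-miR403-5p by 1.89 and sly-miR168a-3p by 1.57. Copper protein families gave sly-miR398a-5p_stu (3.50), sly-miR408-p5_dpr (2.76) and sly-miR408b-5p_stu (2.70). Auxin signalling gave sly-miR160a-3p_stu (3.99), sly-miR167b-3p_stu (2.17) and sly-miR167d-3p_stu (1.87), and HD-ZIP III families gave sly-miR166c-5p (3.63) and sly-miR166b-p5 (2.86). The remaining passengers were sly-miR396a-3p (1.77) and sly-miR159-p5 (1.42). The other 3 were the guide sly-miR168a-5p (1.17), sly-miR1919a (2.05) and the candidate PC-132-3p (1.87). Of these, sly-miR166c-5p, sly-miR408-p5_dpr, sly-miR482d-5p_stu and PC-132-3p lost their calls when single libraries were left out, with adjusted p up to 0.085, 0.12, 0.10 and 0.066 in that order. No trend also ended the first 3, the replicate block sly-miR408-p5_dpr and PC-132-3p, a pseudocount of 0.5 sly-miR408-p5_dpr, equal totals sly-miR482d-5p_stu, and no filter PC-132-3p (adjusted p up to 0.084).

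Among the duplexes, the difference in the log2 ratio of passenger to guide was 5.26 for sly-miR482d-5p with sly-miR482d-3p, 3.89 for sly-miR398a-5p_stu with sly-miR398a-3p_stu and 2.85 for sly-miR482a-p5 with sly-miR482a. It was 2.13 for sly-miR396a-p3_ath, 1.33 for sly-miR6027-5p, 1.24 for sly-miR6026-5p_stu and 1.22 for sly-miR159-p5, each with its guide. The difference was negative for sly-miR390a-3p (−2.07) and sly-miR390b-3p (−2.44), whose share fell without water.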

How the results depend on the processing

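The number called for combination vs drought lay between 40 and 54 under other scalings, pseudocounts, filters, no trend, the 6 libraries alone and the replicate block, against 50. Whether the replicate numbers pair the samples is not known. Same-numbered combination and drought libraries correlated at 0.38, 0.24 and 0.06 in their deviations from the group means. Libraries with different numbers correlated at −0.32 to 0.17, the highest being combination replicate 3 with drought replicate 2. The main fit did not pair the samples, and the replicate block gave 43 calls. An ordinary linear model without adjustment passed 92, 48 of them among the 50. It used the 6 combination and drought libraries alone and the deposited values without the log2 scale, so its count is not directly comparable. With a mean of at least 50 normalized reads, 12 were higher in place of 19, 3 candidates were higher in place of 11 and 32 sequences passed the interaction test in place of 21. The number of passengers that were higher (3) was 1 with the block, with no filter and with no trend. None of the 50 called sequences changed sign under the alternatives run. Sequences that were not called could do so. The exact form of sly-miR398b-3p_stu, high in combination replicate 1 alone, was lower at combination without that library. The median log2FC of all sequences turned positive without combination replicate 1 (0.06).

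With each combination or drought library left out in turn, the count ranged from 29 to 56 (6 to 19 higher, 22 to 40 lower), passengers from 21 to 25 lower and from 0 to 2 higher, guides from 1 to 9, candidates from 3 to 12 higher, and the named sequences from 21 to 33 of 36. With a heat or control library left out (an alternative chosen after seeing the data) these were 45 to 56 (14 to 23 higher, 30 to 34 lower), 24 to 27 lower and 2 to 3 higher, 5 to 9, 9 to 13, and 34 to 36. The interaction gave 17 to 30 sequences and the duplex ratios 23 to 32 when any library was left out. At low levels depth limits the comparison, since the lowest value above 0 was 1.58 to 3.24 normalized reads by library. A test on read counts (voom or edgeR) was not run, since the deposited values are not counts.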
